A study of Mus musculus with 36 samples.

Results

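The comparison of zeitgeber time (ZT) 16 with ZT 4 in normal chow rests on 6 RNA-seq libraries, 3 from ZT 16 and 3 from ZT 4, of 36 libraries in the series. All came from adult C57BL/6J mice, the common inbred laboratory strain, with no transgene or drug given in the labels. The chow mice had eaten normal chow for 10 weeks, and the other mice of the series ate a high-fat diet for the same time. Each diet has 6 times of day (ZT 0, 4, 8, 12, 16 and 20) with 3 libraries a time. Zeitgeber time counts hours from lights on, so ZT 4 falls in the light phase and ZT 16 in the dark phase, when mice are active. The labels do not give the light schedule and do not say whether replicates were separate animals, so the p-values measure the spread between libraries, which may be technical. The tissue was a block enriched for the suprachiasmatic nucleus (SCN), dissected from fresh brain. Of 24883 gene rows, 15150 had a mean of at least 1 over the 18 chow libraries and were tested. Levels are FPKM (fragments scaled to transcript length and library size) rescaled so that each library sums to 1000000. Differences are log2(value + 1) at ZT 16 minus ZT 4, a scale that understates the change of low genes.

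The SCN is the central circadian pacemaker of mammals, and its neurons keep time through a transcription feedback loop in which CLOCK and BMAL1 (gene Arntl) switch on their own inhibitors of the PER, CRY and REV-ERB (Nr1d1, Nr1d2) families. The SCN in turn times daily signals that reach all brain cells, among them body temperature, feeding and the adrenal glucocorticoid rhythm, which in mice peaks near the onset of the dark phase. Glucocorticoids act through a nuclear receptor on genes such as Tsc22d3, and raised temperature acts through heat shock factors on chaperone genes such as Hspa1b.

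Between ZT 16 and ZT 4, 22 of 15150 genes passed an adjusted p of 0.05 (0.145%), 12 of them higher at ZT 16 (0.0792%) and 10 lower (0.066%). The lower genes were led by Fabp7, a glial fatty acid-binding protein, and held the myelin genes Opalin and Pllp. The higher genes were led by Plin4, a coat protein of lipid droplets, and held the heat shock genes Hspa1a, Hspa1b and Dnajb1 and the glucocorticoid-induced Tsc22d3. Absolute log2 differences ran from 0.32 to 1.81 among the 22, with a median of 0.76, while the median signed difference over all tested genes was 0.04. At an unadjusted p under 0.05 there were 2253 genes (14.9%), 1535 higher (10.1%) and 718 lower (4.74%). The groups of all 22 genes were separate, as were those of 21.7% of all tested genes, 13.9% with ZT 16 above and 7.85% with ZT 16 below. Of the called genes 54.5% were higher at ZT 16, against 42.9% with the deposited FPKM unscaled and 38.7% with median-of-ratios scaling.

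**Figure D1:**
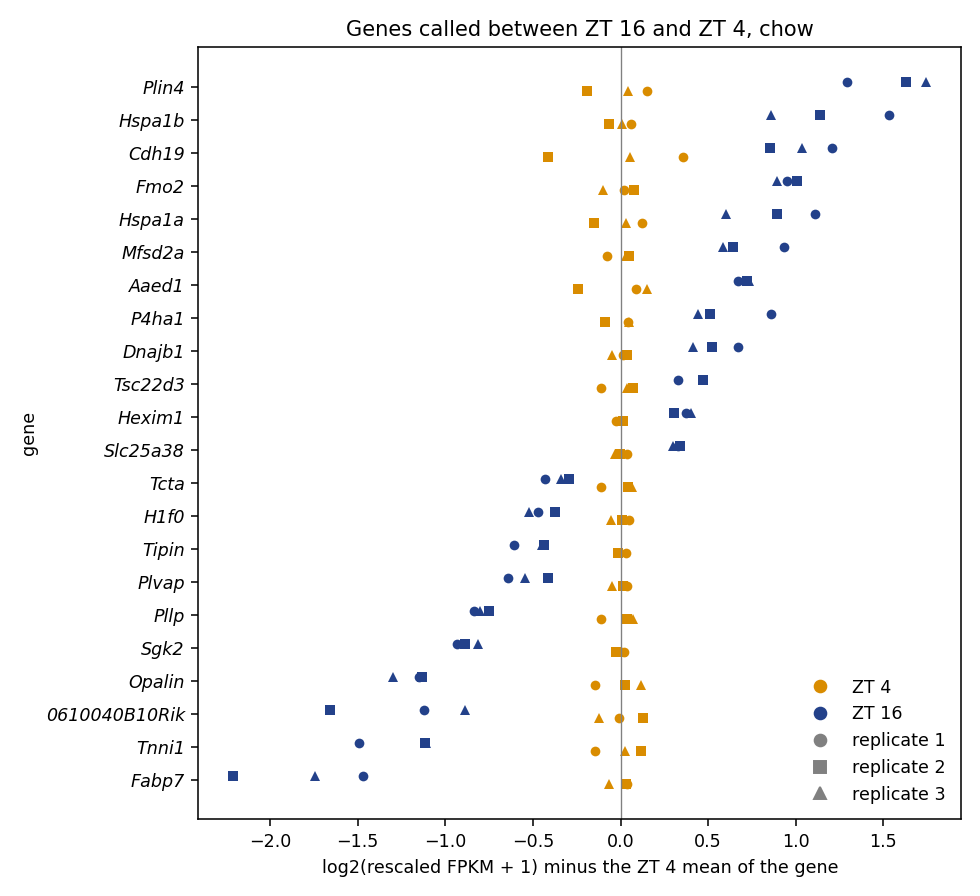
Each row is one of the 22 called genes, and each point one library (orange ZT 4, blue ZT 16, shape for the replicate number). The horizontal axis is log2(rescaled FPKM + 1) minus the gene's ZT 4 mean. No ZT 16 point falls within the ZT 4 points of its gene, and Fabp7 lies farthest from 0.

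The 6 libraries were alike in bulk but not in every tissue marker. Pearson's r of log2 values ran from 0.953 to 0.982 within groups and from 0.959 to 0.974 between them. FPKM sums before rescaling ran from 374513 to 423751, and depth in reads is not known from FPKM. The liver gene Alb stood at 335 in ZT 4 replicate 1, against 3.29 and 3.33 in the other ZT 4 libraries and 5.37 to 55.9 at ZT 16. Without that library 264 genes were called (1.74%), among them all 22. Leaving out any other library of the contrast left 1 to 3 genes, each time with Fabp7 among them. Markers were present for SCN neurons, with Vip from 14.2 to 57.9, but Oxt, the oxytocin gene of neighbouring magnocellular nuclei, reached 1735 to 3336, so the block held more than the SCN. In such a block, fewer cells of a type and less RNA per cell cannot be told apart.

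Fabp7 fell the most. It encodes the brain fatty acid-binding protein of astrocytes and radial glia, which carries long-chain polyunsaturated fatty acids. Its level was 326, 325 and 304 rescaled FPKM in the ZT 4 libraries and 114, 68.0 and 94.4 in the ZT 16 libraries. The highest ZT 16 library thus stayed below the lowest ZT 4 library by a wide margin. The log2 difference was -1.81 ± 0.17 (SE, n = 3 against 3), 3.50-fold lower, with an adjusted p of 0.000522, and Fabp7 stayed past the threshold without any single library of the contrast. With the spread taken from the 6 contrast libraries alone its adjusted p was 0.0533. Of its relatives, Fabp5 stood at 317 ± 22.4 (SD, n = 3) at ZT 4 and 275 ± 15.6 at ZT 16 (log2 difference -0.21, adjusted p = 0.251). Fabp3, the heart-type protein also made in neurons, had a log2 difference of -0.14 (adjusted p = 0.448). Among genes of fatty acid oxidation and targets of PPAR receptors, Fabp7 was the 1 called gene of 35 tested, against 0.145% of all genes. The list's median was -0.07.

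The promoter of Fabp7 is shown because it was the called gene with the smallest p and held 1 of the 6 clock, stress or hormone motifs searched. The sequence is the 250 bases before the RefSeq start on GRCm38.p6, chr10:57784673-57784922, plus strand. Capitals mark the core of the RORE, the element bound by ROR and REV-ERB receptors, searched as TAGGTCA on both strands and found on the minus strand 171 to 165 bases before the start.
Fabp7: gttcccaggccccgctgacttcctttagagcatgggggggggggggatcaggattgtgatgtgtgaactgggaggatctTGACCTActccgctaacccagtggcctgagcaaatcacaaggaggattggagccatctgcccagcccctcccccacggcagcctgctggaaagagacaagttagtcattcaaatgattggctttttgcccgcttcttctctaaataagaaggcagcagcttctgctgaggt
This motif was in 2.27% of 27025 RefSeq promoters of the same length, and in 1 of the 17 called genes that had a promoter sequence.

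Myelin genes were the next group among the lower genes. Opalin, a membrane protein of mature oligodendrocytes, stood at 87.3, 98.2 and 105 at ZT 4 and at 42.9, 43.4 and 38.7 at ZT 16. Every ZT 16 library lay far below the lowest ZT 4 library, and the log2 difference was -1.19 ± 0.20 (adjusted p = 0.0349). Pllp, plasmolipin of the myelin membrane, read 76.0, 84.1 and 86.4 at ZT 4 and 45.6, 48.3 and 46.6 at ZT 16, again with separate groups (-0.80 ± 0.14, adjusted p = 0.046). In the oligodendrocyte list, 1 of 17 tested members (Opalin) was called, against 0.145% of all genes. In that list 14 had a negative difference, and the median was -0.20. At an unadjusted p under 0.05, 6 of the 17 were lower and 0 higher, against 4.74% and 10.1% of all genes. Cnp and Mog, which encode a myelin enzyme and a surface protein of the sheath, had log2 differences of -0.47 each (adjusted p = 0.14 and 0.281). Mbp, which encodes the abundant myelin basic protein, had overlapping groups (-0.16, adjusted p = 0.693). The summed level of the oligodendrocyte list ran from 5751 to 7073 at ZT 4 and from 4807 to 5980 at ZT 16. The sums overlapped, but Mbp alone made up 2507 to 3238 of them at ZT 4 and 2143 to 2911 at ZT 16.

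The other lower genes had unlike roles. Tnni1, troponin I of slow muscle, read 9.56, 11.7 and 10.9 at ZT 4 and 3.16, 4.39 and 4.40 at ZT 16 (-1.24 ± 0.18, adjusted p = 0.0231). Sgk2, a kinase related to SGK1, read 3.13, 3.01 and 3.10 against 1.14, 1.20 and 1.32 (-0.88 ± 0.16, adjusted p = 0.046). Both had tight groups with no overlap. Plvap, which forms the diaphragms of fenestrated endothelium, fell by 0.53 ± 0.095 on the log2 scale. Tipin, the partner of Timeless at replication forks, fell by 0.50 ± 0.089, while Timeless itself was at 1.65 ± 0.20 (SD, n = 3) at ZT 4 and 1.77 ± 0.42 at ZT 16 (adjusted p = 0.873). H1f0, a linker histone, fell by 0.46 ± 0.075, Tcta by 0.36 ± 0.065 and the unnamed transcript 0610040B10Rik by 1.22 ± 0.22. Adjusted p-values of these genes ran from 0.0349 to 0.046. Zfand1 just missed the threshold (-0.46, adjusted p = 0.0514).

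The inducible 70-kDa heat shock proteins and their cochaperone rose. Hspa1b read 5.21, 4.69 and 5.0 at ZT 4 and 16.2, 12.1 and 9.82 at ZT 16 (log2 difference 1.18 ± 0.16, adjusted p = 0.0174). Hspa1a read 8.05, 6.50 and 7.51 against 17.0, 14.4 and 11.7 (0.87 ± 0.16, adjusted p = 0.046). Groups were separate for both, and replicate 1 was the highest of the ZT 16 libraries. Hspa1a and Hspa1b are near-identical copies, so how reads were split between them is uncertain. Dnajb1, the J-domain protein that works with HSP70, read 45.8, 46.5 and 43.8 at ZT 4 and 72.8, 65.4 and 60.8 at ZT 16 (0.54 ± 0.096, adjusted p = 0.046).

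The promoter of Hspa1b is shown because the heat shock element core, searched as GAANNTTC, was found in both HSP70 genes. It is the 250 bases before the RefSeq start on GRCm38.p6, chr17:34959239-34959488, minus strand, with the core in capitals 104 to 97 bases before the start.
Hspa1b: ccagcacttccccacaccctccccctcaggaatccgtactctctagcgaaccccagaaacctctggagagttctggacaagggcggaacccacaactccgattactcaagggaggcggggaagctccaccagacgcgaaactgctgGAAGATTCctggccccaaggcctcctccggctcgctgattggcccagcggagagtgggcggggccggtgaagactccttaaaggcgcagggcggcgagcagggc
The Hspa1a window was the same at 247 of 250 positions. The core was in 6.78% of all promoters of this length and in 2 of the 17 called genes with a sequence.

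Most other chaperones did not pass. In the list of cytosolic and mitochondrial heat shock chaperones 3 of 32 tested members were called, all higher, against 0.0792% of all genes. At an unadjusted p under 0.05, 10 of the 32 were higher and 0 lower, against 10.1% and 4.74% of all genes. The list's median was 0.12. Chordc1, an HSP90 cochaperone, went from 64.2, 62.5 and 65.2 to 103, 99.1 and 91.0 with no overlap, and narrowly missed the threshold (0.60, adjusted p = 0.0528). Hspb1, the small heat shock protein HSP27, went from 14.2 ± 2.65 (SD, n = 3) to 32.6 ± 9.04 (1.12, adjusted p = 0.135). The constitutive chaperone Hspa8 differed by 0.10 (adjusted p = 0.586), with overlapping groups from 2491 to 3025. In the endoplasmic reticulum (ER) list, 0 of 31 tested members were called, against 0.145% of all genes, and the median was 0.15. At an unadjusted p under 0.05, 11 of the 31 were higher and 0 lower, against 10.1% and 4.74% of all genes. The ER chaperone Hspa5 (BiP) had a log2 difference of 0.38 (adjusted p = 0.13), the disulfide isomerase Pdia4 0.35 (0.102) and the cochaperone Dnajc3 0.42 (0.132), each with separate groups.

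Glucocorticoid-responsive genes were the list with the most members higher at an unadjusted p. Plin4, which coats lipid droplets and is induced by glucocorticoids, read 1.56, 1.02 and 1.38 at ZT 4 and 4.64, 6.13 and 6.74 at ZT 16 (1.55 ± 0.22, adjusted p = 0.0174). Mfsd2a, the blood-brain barrier transporter of docosahexaenoic acid, read 19.8, 21.6 and 21.4 against 40.8, 33.2 and 31.8 (0.72 ± 0.11, adjusted p = 0.0231). Tsc22d3, which encodes the glucocorticoid-induced leucine zipper GILZ, read 100.1, 114 and 111 against 136, 150.3 and 150.5 (0.42 ± 0.071, adjusted p = 0.0349). None of these groups overlapped. These 3 were the called members of 28 tested, all higher, against 0.0792% of all genes. Of the 28, 19 were higher at an unadjusted p under 0.05, against 10.1% of all genes, and the median was 0.41 against 0.04. This list, like the others, was chosen with earlier results of these data known, so these shares are a description only.

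Other members of that list had separate groups without passing. Klf15, a Krüppel-like factor that controls amino acid breakdown, went from 22.4 ± 0.64 (SD, n = 3) to 29.5 ± 2.32 (0.38, adjusted p = 0.0514). Bcl6, a transcriptional repressor, went from 14.7 ± 1.99 to 23.0 ± 0.84 (0.62, adjusted p = 0.0514). Fam107a, a stress-responsive actin-binding protein, had a difference of 0.62 (adjusted p = 0.133), and Fkbp5, the cochaperone that restrains the receptor, 0.36 (0.234). Sgk1 varied at ZT 16, with 26.2, 47.0 and 38.4 against 18.6, 17.8 and 19.4 at ZT 4 (0.93, adjusted p = 0.298). The metallothioneins, metal-binding proteins that glucocorticoids also induce, were not higher at ZT 16: Mt2 read 613 ± 99.3 at ZT 4 and 365 ± 75.3 at ZT 16 (-0.76, adjusted p = 0.14), and Mt1 differed by -0.23 (0.499). The core of the glucocorticoid response element, searched as AGAACA, was in the promoter window of 1 of 17 called genes, Tnni1, and in 16.2% of all promoters.

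The remaining higher genes covered several functions. Cdh19, a cadherin of glia, read 6.84, 3.60 and 5.36 at ZT 4 and 13.1, 10.04 and 11.6 at ZT 16 (1.03 ± 0.19, adjusted p = 0.046). Fmo2, a flavin-containing monooxygenase, read 0.67, 0.73 and 0.54 against 2.18, 2.31 and 2.06 (0.95 ± 0.15, adjusted p = 0.0349). Both groups were separate, though Fmo2 was near the filter of 1. P4ha1, the prolyl hydroxylase of collagen, rose by 0.60 ± 0.10 and Aaed1 by 0.71 ± 0.11. Hexim1, an inhibitor of the elongation factor P-TEFb, rose by 0.36 ± 0.065, and Slc25a38, the mitochondrial glycine carrier, by 0.32 ± 0.055, with adjusted p-values of 0.0349 to 0.046. For Slc25a38, 33.5 ± 0.82 (SD, n = 3) became 42.2 ± 0.59, a small difference with very little spread. Kirrel2, a cell adhesion protein, was chosen after its values were seen: it went from 1.65 ± 0.29 to 5.32 ± 1.41 (1.23, adjusted p = 0.0514). Some called genes overlap another annotated gene (Plin4 and Hdgfl2, Aaed1 and Cdc14b, Plvap and Gtpbp3, Tcta and Rhoa, Hspa1a and Gm20481, 0610040B10Rik and Zdhhc4), and Pllp and H1f0 overlap antisense transcripts. Whether the counting used strand is not given in the sources used here, so those levels are uncertain.

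**Figure D2:**
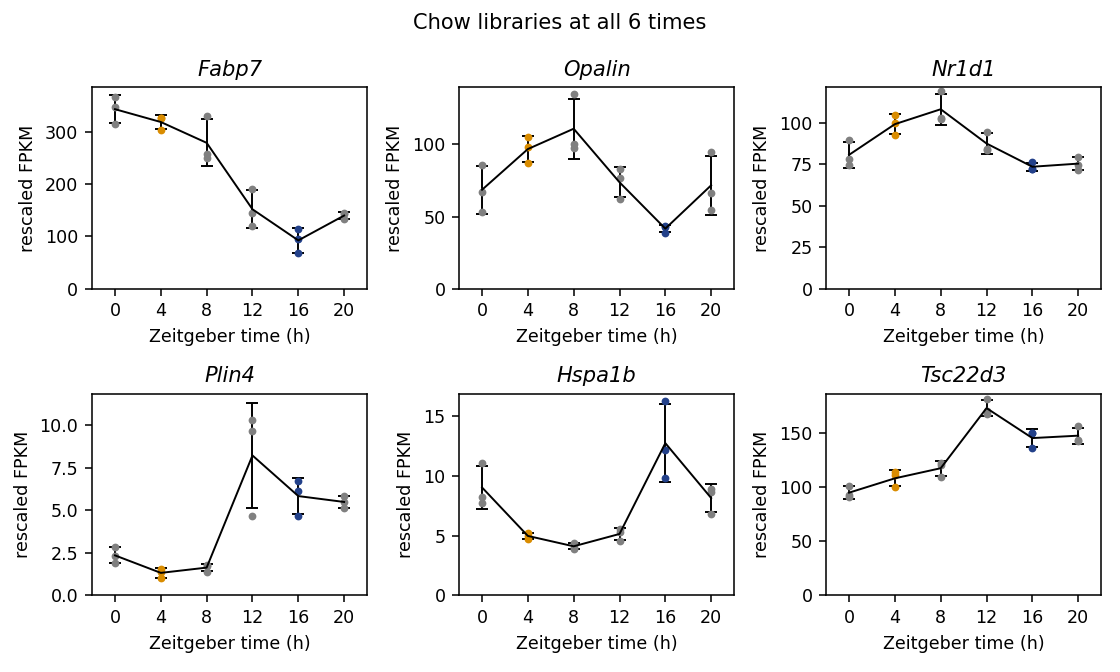
Levels in rescaled FPKM of 6 genes against zeitgeber time in hours, in the 18 chow libraries. Points are libraries (orange ZT 4, blue ZT 16, grey the other times), the line joins means and bars are SD (n = 3). Fabp7 and Opalin are lowest at ZT 16, Hspa1b is highest there, and Plin4 and Tsc22d3 are highest at ZT 12.

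The other chow times place these differences in the day. Among the 22 called genes, the ZT 16 mean was the most extreme of the 6 time means for 19, against 35.0% of all tested genes. This is a description only, since the called genes were chosen by these ZT 16 values. The exceptions were Cdh19, Plin4 and Tsc22d3. Plin4 averaged 1.63 at ZT 8 and 8.23 ± 3.11 (SD, n = 3) at ZT 12, and Tsc22d3 118 at ZT 8 and 173 at ZT 12. Hspa1b was still at 5.13 ± 0.51 at ZT 12 and stood at 9.02 ± 1.79 at ZT 0; its ZT 12 mean was close to that at ZT 4, 4.97 ± 0.26. Fabp7 went from 279 at ZT 8 to 152 at ZT 12 and 92.3 at ZT 16. No test was made between these times.

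None of the 22 core clock genes was called, and none of 12 clock output genes, against 0.145% of all tested genes. At so low a share, lists of this size would mostly hold no called gene. At an unadjusted p under 0.05, 3 of the 22 core genes were higher and 1 lower, against 10.1% and 4.74% of all genes. The core median was 0.08, which became -0.04 when each library was centred by transcript length. Nr1d1, the repressor REV-ERB alpha, came closest: 100.2, 92.8 and 105 at ZT 4 against 72.0, 76.4 and 72.3 at ZT 16. Its groups were separate (-0.43 ± 0.082, adjusted p = 0.0548), and the adjusted p was 0.0457 without ZT 4 replicate 1 and 0.00988 after length centring. Nr1d2, its paralogue, had the other sign (0.34 ± 0.13, adjusted p = 0.279), with separate groups.

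Arntl and the Period genes had overlapping groups. Clock, the partner of BMAL1, read 24.2, 13.2 and 20.2 at ZT 4 and 23.7, 28.1 and 24.1 at ZT 16, with ZT 4 replicate 2 the lowest (0.42 ± 0.21, adjusted p = 0.357). Npas2, which can stand in for CLOCK, had a difference of 0.34 ± 0.33 (adjusted p = 0.631). Both of these also overlapped between the groups. Arntl read 16.8, 16.5 and 19.8 at ZT 4 and 17.77, 17.96 and 16.81 at ZT 16 (-0.01 ± 0.12, adjusted p = 0.972). Per1 read 23.7, 22.7 and 29.2 against 25.0, 26.7 and 25.6 (0.04 ± 0.21, adjusted p = 0.944), and Per2 11.8, 7.93 and 13.5 against 12.2, 11.7 and 12.6 (0.15 ± 0.22, adjusted p = 0.745). Differences of these genes were small against their SE, and the sign for Per1 changed with either other scaling, with length centring and without ZT 4 replicate 2. Cry1, a repressor of CLOCK and BMAL1, read 18.9, 17.2 and 18.8 at ZT 4 and 21.2, 23.1 and 20.6 at ZT 16 (0.23 ± 0.085, adjusted p = 0.269). Ciart, another repressor, had a difference of -0.33 (adjusted p = 0.365). Among outputs, the PAR bZIP factor Tef had 0.27 (0.273), its relative Dbp -0.18 (0.486), the cell cycle kinase Wee1 0.31 (0.254) and the inhibitor Id2 -0.36 (0.144). A small difference here does not mean a level that is flat over the day. Dbp averaged 103 at ZT 8 and 95.4 at ZT 12, against 42.9 at ZT 0 and 44.6 at ZT 20 in chow. Those times were not tested. Groups were separate for Cry1, Ciart, Tef, Wee1 and Id2, as for 21.7% of all tested genes. Of the 22 core genes, 2 were separate with ZT 16 above and 2 with ZT 16 below. Of the 12 outputs these numbers were 7 and 2.

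The promoters of Cry1 and Tef are shown because they had the smallest p among clock genes and outputs whose window held a searched motif. Both windows are the 250 bases before the RefSeq start on GRCm38.p6, chr10:85185055-85185304 on the minus strand and chr15:81802423-81802672 on the plus strand. Capitals mark the canonical E-box CACGTG, the site of CLOCK and BMAL1, which lies 60 to 55 bases before the start in Cry1 and 127 to 122 in Tef.
Cry1: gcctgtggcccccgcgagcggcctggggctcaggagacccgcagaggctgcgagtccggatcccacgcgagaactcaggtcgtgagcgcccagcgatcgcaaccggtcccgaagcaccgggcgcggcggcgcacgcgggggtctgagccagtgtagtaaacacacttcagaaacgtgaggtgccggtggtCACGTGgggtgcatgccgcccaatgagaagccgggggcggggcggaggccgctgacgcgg
Tef: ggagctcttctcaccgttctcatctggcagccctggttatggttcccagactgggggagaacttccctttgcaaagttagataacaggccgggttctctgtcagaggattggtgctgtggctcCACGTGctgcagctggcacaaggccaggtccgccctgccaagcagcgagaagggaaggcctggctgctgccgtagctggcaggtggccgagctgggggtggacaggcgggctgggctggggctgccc
The E-box was in 6.05% of all promoters of this length and in 0 of the 17 called genes with a sequence. The D-box TTATGTAA (0.862% of promoters) and the cyclic AMP response element TGACGTCA (1.62%) were also in 0 of them.

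In the SCN list 0 of 28 members were called, against 0.145% of all tested genes. At an unadjusted p under 0.05, 2 of the 28 were lower and 0 higher, against 4.74% and 10.1% of all genes. Nms, neuromedin S of SCN neurons, read 6.74, 6.41 and 9.37 at ZT 4 and 1.61, 3.65 and 2.72 at ZT 16 (-1.24 ± 0.29, adjusted p = 0.12). Vip, the peptide that couples SCN neurons, read 37.1, 15.7 and 57.9 against 14.9, 16.5 and 14.2 (-1.05 ± 0.49, adjusted p = 0.334). The Nms groups were separate, whereas ZT 4 replicate 2 had a Vip level like those at ZT 16. Grp, a peptide of the retinorecipient core, had a difference of -0.44 (adjusted p = 0.34), Prok2, an SCN output signal, -0.63 (0.437) and Avp, of the SCN shell and magnocellular neurons, -0.06 (0.975). The median of the list was 0.02 and turned to -0.05 and -0.02 with the deposited and the median-of-ratios scaling.

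**Figure D3:**
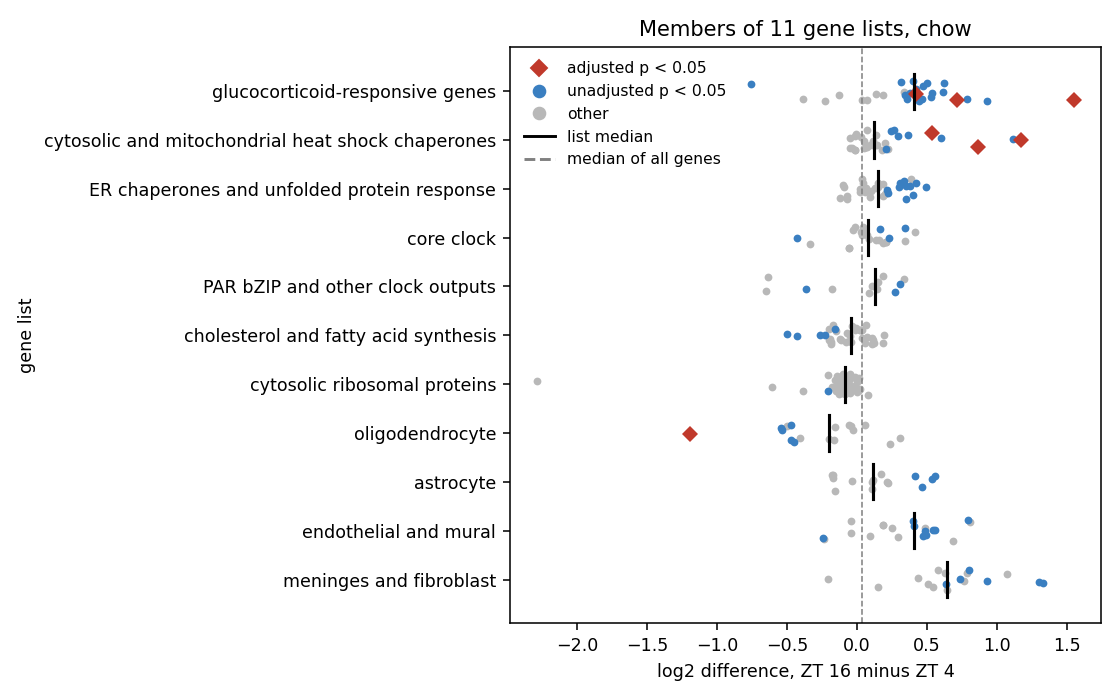
Log2 differences (ZT 16 minus ZT 4, chow) of the tested members of 11 gene lists, 1 point per gene; red diamonds passed the adjusted threshold, blue points have an unadjusted p under 0.05, black bars are list medians and the dashed line is the median of all genes (0.04). Glucocorticoid-responsive genes lie mostly to the right, with a median of 0.41, and oligodendrocyte genes mostly to the left, with a median of -0.20. The lists were chosen with earlier results of these data known.

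Metabolic and RNA-processing lists had few called members, where 0.145% of all tested genes were called. In cholesterol and fatty acid synthesis 0 of 35 were called, with a median of -0.04. At an unadjusted p under 0.05, 5 of the 35 were lower and 0 higher, against 4.74% and 10.1% of all genes. The 5 lower genes included Insig1, which holds the sterol sensor in the ER (-0.43, adjusted p = 0.114), Mvd of the mevalonate pathway (-0.50, 0.14) and Dhcr7, the last step to cholesterol (-0.26, 0.161). After length centring Insig1, Lss and Dhcr7 passed. In the list of cold-inducible and splicing regulators 0 of 26 were called. The splicing factor Srsf5 read 397, 431 and 464 at ZT 4 and 253, 312 and 289 at ZT 16 (-0.60, adjusted p = 0.14), and it passed after length centring (adjusted p = 0.0365). The cold-inducible Cirbp had a difference of -0.36 (adjusted p = 0.202), and Rbm3, also cold-inducible, 0.11 (0.535). Both varied more at other chow times, which were not tested: Cirbp averaged 146 at ZT 0 and 253 at ZT 12, and Rbm3 111 and 232. Members were called in none of the lists for light- and activity-induced genes, glycolysis and TCA cycle, oxidative phosphorylation, feeding peptides and receptors, or inflammation. Their medians were 0.18, -0.01, -0.06, 0.26 and 0.13. Of the feeding genes, the orexin receptor Hcrtr2 went from 4.39 ± 0.99 (SD, n = 3) to 7.81 ± 0.34 (0.72, adjusted p = 0.14). Of 53 cytosolic ribosomal protein genes 0 were called, 6 had a positive difference and the median was -0.09, which was -0.01 after length centring.

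Cell type and region markers moved in part with the groups. The endothelial and mural list had 0 called of 20, against 0.145% of all tested genes, a share that also stands beside the lists below. At an unadjusted p under 0.05, 8 of the 20 were higher and 1 lower, against 10.1% and 4.74% of all genes. This list had a median of 0.40 and summed levels of 285 to 311 at ZT 4 and 336 to 394 at ZT 16. Its member with the smallest p was Abcb1a, the P-glycoprotein efflux pump of brain capillaries, at 8.00 ± 2.09 (SD, n = 3) and 14.4 ± 1.96 (0.80, adjusted p = 0.0797). These values stand beside those of Mfsd2a, which capillary cells also express, and their part in its rise was not tested. In the astrocyte list 0 of 15 were called, with a median of 0.11. Of the 15, 4 were higher at an unadjusted p under 0.05, against 10.1% of all genes. Summed astrocyte levels ran from 4059 to 4740 at ZT 4 and from 4498 to 5728 at ZT 16, and these ranges overlapped. Their bearing on Fabp7 was not tested. The meninges list had 0 called of 17 and a median of 0.65. Its sums were 934 to 1780 at ZT 4 and 1418 to 5045 at ZT 16, the highest in ZT 16 replicate 3. The liver list had 0 called of 18 and sums of 469 to 2146 at ZT 4 and 351 to 575 at ZT 16. The pituitary list had 0 called of 6, all with a positive difference and a median of 0.64, and sums of 8.06, 22.1 and 113 at ZT 4 and 15.2, 60.7 and 217 at ZT 16 in rising order. Its hormone subunit Cga stood at 46.8 in ZT 16 replicate 1 and at 0 to 0.55 in the other 5 libraries. In the lists for pan-neuronal genes, oligodendrocyte precursors, microglia, ependymal cells and tanycytes, choroid plexus, blood, neighbouring hypothalamic nuclei, and the thalamus, cortex and striatum, no member was called. The part of these markers in the called genes was not tested.

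**Figure D4:**
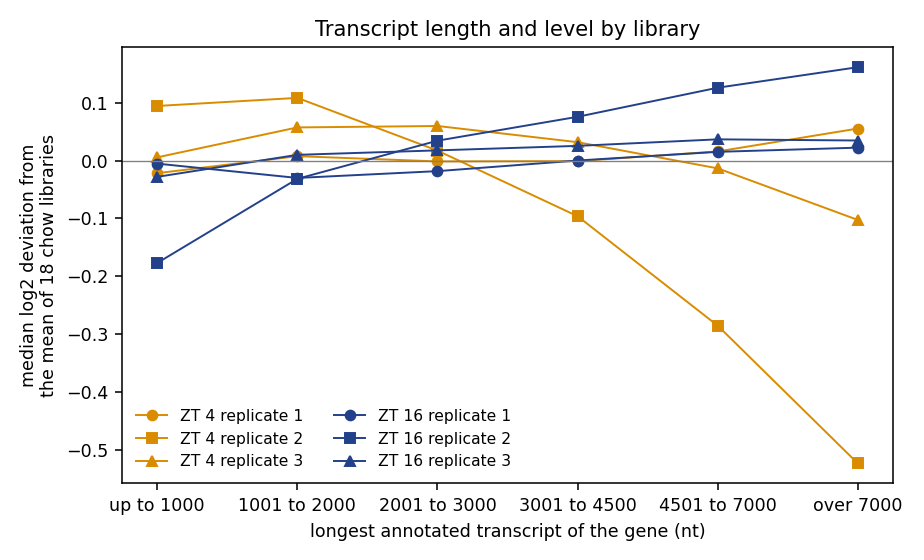
Median log2 deviation of each library from the mean of the 18 chow libraries, for genes in 6 classes of transcript length (horizontal axis, nucleotides); orange is ZT 4 and blue ZT 16. ZT 4 replicate 2 drops to -0.52 for transcripts over 7000 nt, while the other 5 libraries stay between -0.10 and 0.16.

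The level of long against short transcripts, which can reflect RNA quality (not measured here), also differed between libraries. Using the longest GENCODE M21 transcript of each of 14554 genes, the median difference went from -0.09 for transcripts up to 1000 nt to 0.26 for those over 7000 nt. ZT 4 replicate 2 was low in long transcripts, with a median deviation of -0.52 over 7000 nt, the lowest of the 18 chow libraries. ZT 4 replicate 1 stood at 0.06 in that class, above ZT 16 replicates 1 and 3 (0.02 and 0.03). The 264 genes called without ZT 4 replicate 1 made up 3.67% of the genes over 7000 nt and 0.763% of those up to 1000 nt. None of the 22 called genes was over 7000 nt. When each library was centred within 20 length classes, 87 of 14554 genes were called (0.598%), 43 higher and 44 lower, and 21 of the 22 were among them. The remaining gene was H1f0 (adjusted p = 0.053). Klf15, Bcl6 and Chordc1 passed after this step. Both this step and the classes were chosen after the data had been seen.

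The same contrast in the high-fat diet used 6 libraries that played no part in choosing the genes. There 1 of 15106 genes was called (0.00662%), and it was Mfsd2a: it rose by 0.96 ± 0.11 on the log2 scale, from 19.9 ± 1.38 (SD, n = 3) to 39.8 ± 4.93. At an unadjusted p under 0.05 there were 1851 genes (12.3%). All 22 genes called in chow had the same sign in the high-fat diet, against 62.2% of 14996 genes tested in both, and 14 of them had an unadjusted p under 0.05. For 21 the difference was smaller there, the exception being Mfsd2a; the genes had been chosen by their chow values. Fabp7 averaged 211 at ZT 4 and 116 at ZT 16 in the high-fat diet (-0.86 ± 0.15, unadjusted p = 3.56e-05). Plin4 had nearly the chow difference (1.46 ± 0.34), and Opalin -0.83 ± 0.16. Hspa1b had 0.53 ± 0.16, Hspa1a 0.29 ± 0.16 and Dnajb1 0.14 ± 0.13.

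**Figure D5:**
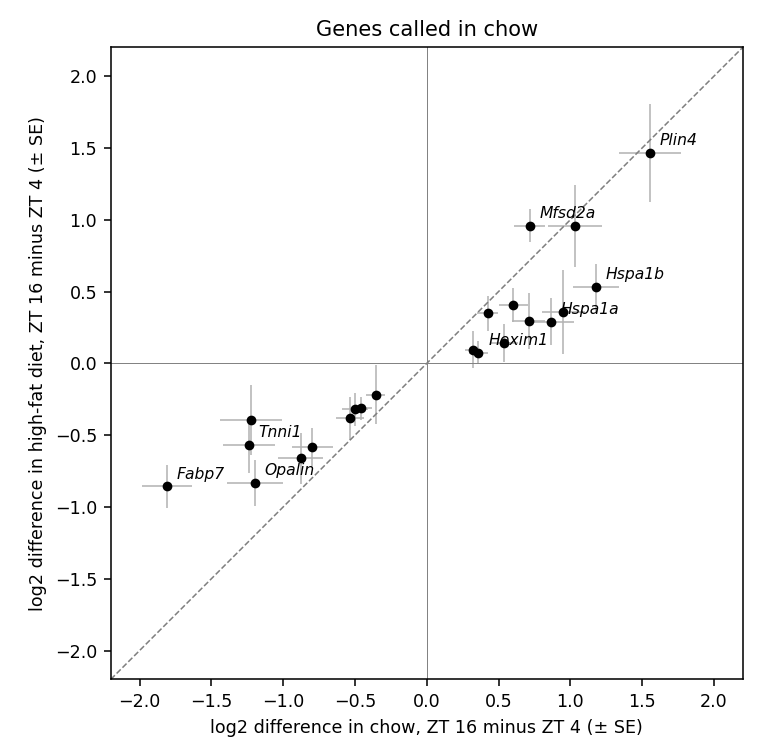
Log2 difference (ZT 16 minus ZT 4) in the high-fat diet against that in chow for the 22 genes called in chow, with SE bars; the dashed line marks equal differences. All points share the sign of both axes, and Mfsd2a is the only gene farther from 0 in the high-fat diet.

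The difference of the contrast between diets was tested over all 36 libraries, and 0 of 15173 genes passed by limma. At an unadjusted p under 0.05 there were 986 (6.5%), and the smallest adjusted p was 0.765. Of the 22 genes, 7 had an unadjusted p under 0.05 for this difference, among them Fabp7 (0.000415), Hexim1 (0.00614) and Hspa1b (0.00831). The named genes with the smallest p were Chga, Phkg1, Pgd, Grem1 and Fabp7. Chga, chromogranin A of secretory granules, had a difference of -0.05 in chow and -0.73 in the high-fat diet. Phkg1, a catalytic subunit of phosphorylase kinase, had -0.52 and 0.17. The glucocorticoid list had a median of 0.41 in chow and 0.37 in the high-fat diet, the oligodendrocyte list -0.20 and -0.26, and the heat shock list 0.12 and -0.13. The meninges list had 0.65 and -0.76, and the endothelial and mural list 0.40 and -0.21. The ER list had 0.15 and -0.05, and the ribosomal list -0.09 and 0.20. The diets were deposited in separate tables, so diet and table cannot be told apart.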

How the data were processed

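RNA-seq libraries were made by the TruSeq stranded mRNA protocol after RNeasy Micro Kit extraction, per the labels' protocols. The submitters' processing notes name Trimmomatic, TopHat and Cufflinks and the builds mm10 and GRCm38. The deposited values were taken as FPKM made by the authors, from the naming of Cufflinks and from the values; no header gives a unit, and further scaling is not given in the sources used here. Depth is unknown, so no counting interval was computed.

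Each library was rescaled to 1000000 and transformed as log2(value + 1), and rows with a mean of at least 1 were tested. limma 3.58.1 in R 4.3.3 was fitted with a mean-variance trend to the 18 chow libraries as 6 group means, with the two-sided contrast of ZT 16 minus ZT 4 and Benjamini-Hochberg adjustment over all genes. High-fat diet libraries were fitted alike, and the diet difference over 36 libraries in 12 groups. The fit was tested on simulated data. Python 3.11.15 made tables, motif searches and figures. Sequences are RefSeq on GRCm38.p6. Gene coordinates and lengths are GENCODE M21.

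Members, the 29 gene lists, motifs and tests were chosen with earlier results of these data known. The text names up to 15 called genes each way, filled to 10 by smallest p, clock genes and outputs, called list members or the 3 with the smallest p, and 5 genes of the diet difference. Klf15, Bcl6, Fam107a, Sgk1, Fkbp5, Mt1, Mt2, Chordc1, Hspb1, Hspa8, Cnp, Mog, Mbp, Kirrel2, Cirbp, Rbm3, Fabp3, Fabp5, Grp, Avp, Lss and 0610040B10Rik were named after their values were seen. Alternatives covered scaling, filter, pseudocount, libraries, variance model, replicate block, leaving out libraries and length centring.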

Additional observations from a re-analysis of the deposited data

How the results depend on the processing

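The count of 22 called genes depended most on the libraries. Without 1 library of the contrast it ran from 1 to 264, the 264 without ZT 4 replicate 1, and 327 without both liver-rich libraries (ZT 0 replicate 1 as well). It was 1 when the contrast libraries alone gave the spread, 7 with the replicate number as a block (6 of them among the 22) and 2 without the libraries rich in meninges (ZT 16 replicate 3) and striatum (ZT 12 replicate 3). Same-numbered ZT 4 and ZT 16 libraries deviated with r from -0.13 to -0.004, so the numbers were not taken to pair the libraries of this contrast; for ZT 0 and ZT 4, also in the fit, r was 0.23 to 0.56. Length centring gave 87, with ZT 4 replicate 1 also left out 624, and with ZT 4 replicate 2 left out 12. Scaling, filter, pseudocount, trend, robust estimation, all 36 libraries and leaving out the striatum-rich library alone gave 15 to 32, of which 10 to 22 were among the 22. The causes were not tested.

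The high-fat count of 1 was 0 with deposited FPKM, 4 with median-of-ratios scaling, 2 with the contrast libraries, 152 with all 36 libraries, and 0 to 1 without single libraries. The diet difference gave 1 with the contrast libraries alone and 0 otherwise.

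No called gene changed sign. Genes with differences near 0 did. Without single libraries the log2 difference ran from -0.0569 to 0.15 for Timeless, from -0.24 to 0.22 for Fbxl21, from -0.0396 to 0.19 for Leo1, from -0.0568 to 0.0688 for Arntl, from -0.0753 to 0.0162 for Bhlhe40, from -1.10 to 0.20 for Apob, from -1.26 to 0.19 for Apoc3, from -0.0298 to 0.15 for Per1, from -0.0481 to 0.30 for Per2, from -0.11 to 0.47 for Rora, from -0.20 to 0.15 for Rorb, from -0.0147 to 0.12 for Bhlhe41, from -0.0905 to 1.004 for S100a9, from -0.47 to 1.59 for Hba-a2. With deposited FPKM it was -0.0247 for Per1, -0.0319 for Rorb, -0.0195 for Fbxl21. With median-of-ratios scaling it was -0.00103 for Per1, -0.00988 for Rorb. Without the liver-rich libraries it was 0.19 for Apoc3. With length centring it was -0.0704 for Per1, -0.0257 for Per2, -0.0453 for Per3, -0.0829 for Rora, -0.27 for Rorb, -0.11 for Bhlhe41, -0.0512 for Timeless, -0.0203 for Leo1, 0.00748 for Chga. Without the meninges-rich and striatum-rich libraries it was 0.0163 for Arntl, 0.0162 for Bhlhe40.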
